A study of Mus musculus with 9 samples.

Results

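The genes described here are 10 of the classical pathway of complement: C1qa, C1qb, C1qc, C1ra, C1s1, C2, C3, C4b, C3ar1 and Serping1. They were chosen by symbol from the 22482 genes of a table of mouse brain RNA-seq, and all 10 were listed in all 9 libraries. RNA came from brain tissue in 3 groups of 3 libraries. C-β-LG/DSF mice had a brain injury from a falling weight and then an injection of C-β-LG/DSF into a tail vein, TBI mice had the injury without that injection, and Sham mice had skull and dura opened over an intact brain. Tissue was taken at the injured site, or at the matching place in Sham, and the stated interest of the study lay in pyroptosis and inflammation genes. The sources used here give no strain, age, sex, dose or time after injury. No group of injured mice with an empty vehicle was analysed here. Whether the 3 libraries of a group stem from separate mice is not stated, so p-values here cover the spread between samples, which may be technical.

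Complement is a cascade of blood and tissue proteins that marks surfaces for removal. In its classical branch, C1q binds antibody, pentraxins or dying cells, with the proteases C1r and C1s bound to it. C1s cuts C4 and C2, whose fragments together form the enzyme that cuts C3. C3 fragments coat the target or, as C3a, signal through a receptor, while C1 inhibitor, the product of Serping1, blocks C1r and C1s. In the mouse brain C1q is made mainly by microglia, and C1q and C3 are known for tagging synapses that microglia then remove.

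Values are FPKM (fragments counted per length of transcript and per size of library), so levels of different genes can be set side by side. Fragment totals are not given, and depth as estimated from the low values was 0.936 to 1.09 times that of Sham 1. Some libraries stood apart in marker genes, given as list means on the log2 scale relative to Sham. TBI 1 was highest in reactive astrocytes (3.64, against 2.28 and 2.61 in the other TBI libraries) and in monocytes and macrophages (2.99, against 1.50 and 2.15). TBI 3 was highest in markers of thalamus (2.65), oligodendrocytes (1.78) and choroid plexus (2.28), and C-β-LG/DSF 2 in neutrophils (3.25). The neutrophil mean rests on the 3 of 9 listed markers that were tested. Thalamus markers were also high in C-β-LG/DSF 2 (2.21) and 3 (1.62), against 0.55 in C-β-LG/DSF 1, and red cell markers were highest in TBI 2 (3.15). Neuronal markers were present in every library, with summed FPKM of 2609 to 2841 in C-β-LG/DSF, 1734 to 2563 in TBI and 3602 to 3789 in Sham. In bulk tissue, fewer cells of a type and less RNA per cell cannot be told apart.

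The 3 C1q genes lie next to each other on chromosome 4 of the mouse genome (GRCm38), in a block of 18675 bases on the minus strand. C1qb lies at 136880129 to 136886187, C1qc at 136889804 to 136893065 and C1qa at 136895917 to 136898803. Promoters are shown for C1qb and C1qc, which moved together, and for C3, which lies on chromosome 17 at 57203970 to 57228136 and stood lowest in Sham. The stretches are reference sequence from RefSeq (GRCm38.p6), on the minus strand and written 5′ to 3′, at chr4:136886201-136886450 (C1qb), chr4:136893066-136893164 (C1qc) and chr17:57228137-57228386 (C3). Capitals mark ACTTCC, which is the PU.1/ETS motif GGAAGT read on the opposite strand, in C1qb and C1qc, and a match to the C/EBP motif TTGCNNAA in C3.
C1qb: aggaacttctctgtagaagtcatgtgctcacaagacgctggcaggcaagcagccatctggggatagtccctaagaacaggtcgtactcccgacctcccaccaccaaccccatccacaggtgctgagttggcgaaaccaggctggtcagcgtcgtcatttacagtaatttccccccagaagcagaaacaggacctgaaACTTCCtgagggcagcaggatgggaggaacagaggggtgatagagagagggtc
C1qc: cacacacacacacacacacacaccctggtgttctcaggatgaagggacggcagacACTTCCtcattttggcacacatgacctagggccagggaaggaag
C3: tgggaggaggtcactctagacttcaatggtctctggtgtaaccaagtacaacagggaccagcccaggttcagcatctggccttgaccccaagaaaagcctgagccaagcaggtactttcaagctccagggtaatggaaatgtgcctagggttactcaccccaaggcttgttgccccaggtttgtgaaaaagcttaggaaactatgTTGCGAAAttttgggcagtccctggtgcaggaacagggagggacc

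RefSeq promoters of 250 bases before the start were matched for 6 of the 10 genes, and those of C1qa, C2, C4b and Serping1 were not used here. Distances below count from the RefSeq start. In C1qc the 250 bases span 136892915 to 136893164, so they reach into the gene as placed above. The printed stretch of C1qc ends where that gene begins. The PU.1/ETS match began 53 bases before the start in C1qb and 195 bases before it in C1qc, and 19.7% of 32851 promoters hold that motif on either strand. The C/EBP match of C3 began 45 bases before the start; C1s1 had a C/EBP match 242 bases before its start, on the opposite strand, and 9.56% of promoters hold one. C1qc also had an NF-kB match 41 bases before the RefSeq start, a motif found in 3.9% of promoters. That match lies beyond the printed stretch and inside the gene as placed above. Neither STAT (TTCNNNGAA, in 7.02%) nor the interferon response motif (GAAANNGAA, in 7.13%) was found in the 6 genes, and C1ra and C3ar1 held none of the 5 motifs searched on both strands. In C1ra only 34 of the 250 bases lie before the annotated gene, so most of its window lies inside the gene. The matches do not overlap each other, and a match is a run of letters, not a bound site.

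TBI was set against Sham to see which of these genes differed at the injured site. The C1q chains, C4b, C3, the receptor gene C3ar1 and the inhibitor gene Serping1 rose in TBI, and the protease genes C1ra, C1s1 and C2 did not pass the test. With limma on log2(FPKM + 0.5) and adjustment over all 14282 genes tested, 7 of the 10 genes rose and none fell. Over all genes 26.8% were called and 14.9% were called higher. The same 7 genes were higher in every TBI library than in every Sham library, which held for 22.6% of all genes. The median log2 difference of the 10 genes was 2.09, and that of all genes tested was 0.01. With 3 libraries against 3, the smallest two-sided p of an exact permutation test on 1 gene is 0.1, and the calls therefore depend on variances pooled over genes.

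C1qa, C1qb and C1qc encode the chains of C1q, the part that recognises a target. C1qa stood at 97.7, 91.8 and 120 FPKM in C-β-LG/DSF 1, 2 and 3, at 310 FPKM in TBI 1, 210 in TBI 2 and 118 in TBI 3, and at 32.3, 39.6 and 35.6 FPKM in Sham 1, 2 and 3. C1qb stood at 107, 86.3 and 135 FPKM in C-β-LG/DSF, at 387, 186 and 116 FPKM in TBI, and at 23.4, 24.6 and 27.4 FPKM in Sham, in the same order of libraries. C1qc stood at 116, 87.1 and 143 FPKM in C-β-LG/DSF, at 335, 207 and 113 FPKM in TBI, and at 24.8, 24.1 and 23.8 FPKM in Sham. For each chain all 6 injured libraries lay above all Sham libraries, TBI 1 was highest, and TBI 3 lay within the range of C-β-LG/DSF. Means were 103 ± 14.7 FPKM in C-β-LG/DSF, 213 ± 95.8 in TBI and 35.8 ± 3.62 in Sham for C1qa (SD, n = 3 each). The means of C1qb were 110 ± 24.7 FPKM in C-β-LG/DSF, 230 ± 141 in TBI and 25.2 ± 2.01 in Sham, and those of C1qc were 115 ± 27.9 FPKM in C-β-LG/DSF, 218 ± 111 in TBI and 24.2 ± 0.490 in Sham (SD, n = 3 each). Of 22482 genes ordered by FPKM, C1qb ranked 642nd, 810th and 457th in C-β-LG/DSF, 106th, 341st and 561st in TBI, and 3730th, 3645th and 3344th in Sham.

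In TBI against Sham the log2 difference was 2.45 for C1qa (SE 0.29, adjusted p = 0.00106), 2.99 for C1qb (SE 0.36, adjusted p = 0.00116) and 3.01 for C1qc (SE 0.33, adjusted p = 0.000915). The mean of TBI was 5.94 times that of Sham for C1qa, 9.13 times for C1qb and 9.02 times for C1qc. TBI 1 was the library highest in monocyte and macrophage markers and in reactive astrocyte markers. Without TBI 1 the differences were 2.13 for C1qa, 2.53 for C1qb and 2.63 for C1qc, all still called. The authors' interval around each FPKM value lay wholly above those of all Sham libraries in 3 of 3 TBI libraries for each chain.

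**Figure D1:**
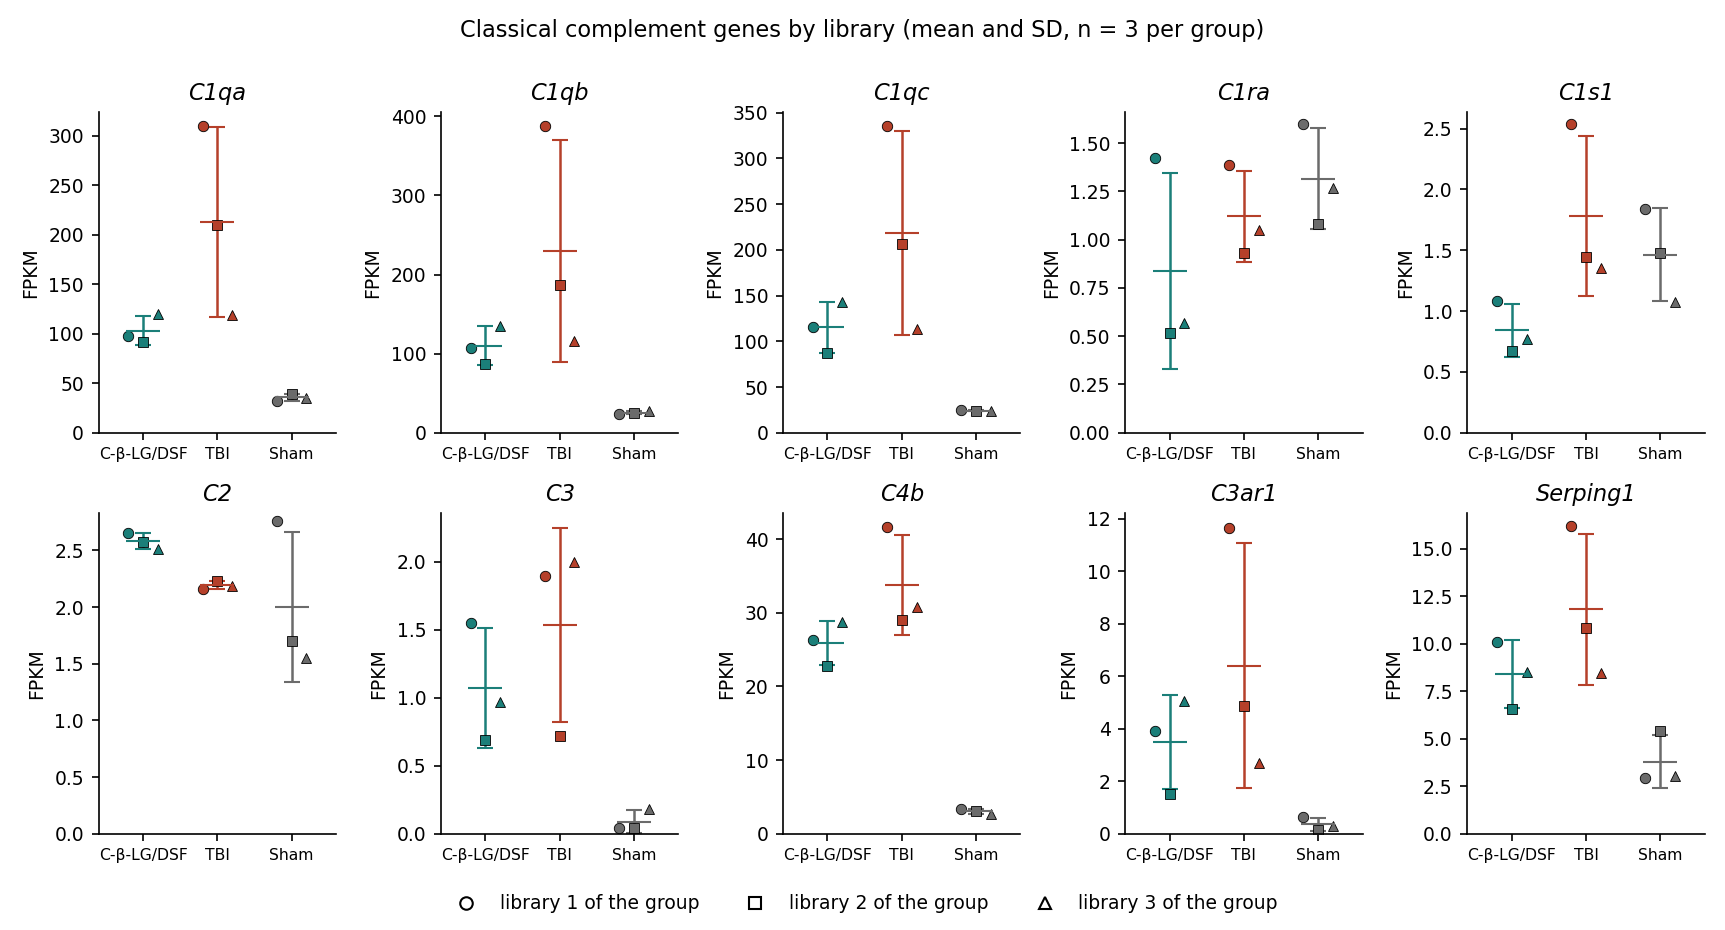
FPKM of the 10 genes in each library (vertical axes, from 0, each panel on its own scale), with C-β-LG/DSF, TBI and Sham from left to right, where circles, squares and triangles are libraries 1, 2 and 3 of a group and lines give the mean and SD of 3 libraries. C1qa, C1qb, C1qc, C4b, C3, C3ar1 and Serping1 lie higher in all 6 injured libraries than in all Sham libraries, while C1ra, C1s1 and C2 overlap between TBI and Sham.

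C1qb and C1qc stood close to each other in every library, and C1qa stood above them in Sham and near them in injured tissue. The ratio of C1qc to C1qb within a library was 1.01 to 1.08 in C-β-LG/DSF, 0.866 to 1.11 in TBI and 0.870 to 1.06 in Sham. C1qa to C1qb was 0.883 to 1.06 in C-β-LG/DSF, 0.801 to 1.12 in TBI and 1.30 to 1.60 in Sham, so the injured libraries lay below the Sham libraries and C1qa had the smallest increase of the chains. C1qa to C1qc gave the same order, with 0.837 to 1.05 in C-β-LG/DSF, 0.925 to 1.05 in TBI and 1.31 to 1.64 in Sham. These ratios are a description and were not tested. The genes on either side of the block, Ephb2 (log2 difference -0.18, adjusted p = 0.366) and Epha8 (-0.60, adjusted p = 0.197), were not called in TBI against Sham.

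C1ra and C1s1 encode the proteases C1r and C1s that travel with C1q, and lie beside each other on chromosome 6, at 124512405 to 124523443 and 124530345 to 124542359. C1ra stood at 1.42, 0.518 and 0.570 FPKM in C-β-LG/DSF, at 1.39, 0.932 and 1.05 FPKM in TBI, and at 1.60, 1.08 and 1.27 FPKM in Sham. C1s1 stood at 1.09, 0.670 and 0.771 FPKM in C-β-LG/DSF, at 2.54, 1.45 and 1.36 FPKM in TBI, and at 1.84, 1.47 and 1.07 FPKM in Sham. TBI and Sham overlapped in both genes, and C-β-LG/DSF 1 was the highest library of its group in both. In TBI against Sham the log2 difference was -0.16 for C1ra (95% interval -0.75 to 0.43, adjusted p = 0.684) and 0.20 for C1s1 (95% interval -0.35 to 0.75, adjusted p = 0.581); that of C1s1 turned negative without TBI 1 (-0.026) and after quantile normalization (-0.17). The authors' intervals included 0 in 7 of 9 libraries for C1ra and in 5 of 9 for C1s1. Their close copies C1rb, C1s2 and C1rl reached at most 0.514 FPKM in any library, and reads of C1ra and C1s1 could be split with them. The nearest tested genes on either side did move in TBI, with Clstn3 lower (-0.77, adjusted p = 0.0123) and Lpcat3 higher (0.98, adjusted p = 0.0030).

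The ratio of C1q to its proteases also lay apart in injured and intact tissue, as a description. The mean of the C1q chains was 98.4 to 172 times the FPKM of C1s1 in C-β-LG/DSF, 85.4 to 139 times in TBI and 14.6 to 27.0 times in Sham. Against C1ra it was 75.2 to 233 times in C-β-LG/DSF, 110 to 248 times in TBI and 16.8 to 27.2 times in Sham. Every injured library lay above every Sham library in both ratios, and C-β-LG/DSF and TBI overlapped. The ratio of C1ra to C1s1 was 0.739 to 1.31 in C-β-LG/DSF, 0.546 to 0.773 in TBI and 0.733 to 1.18 in Sham, with overlap of all groups.

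C4b encodes mouse C4, the substrate of C1s, on chromosome 17 at 34728380 to 34743882. It stood at 26.2, 22.8 and 28.7 FPKM in C-β-LG/DSF, at 41.6, 29.0 and 30.8 FPKM in TBI, and at 3.39, 3.02 and 2.72 FPKM in Sham. The 3 groups did not overlap, and TBI 1 was again highest of all. Means were 25.9 ± 2.98 FPKM in C-β-LG/DSF, 33.8 ± 6.82 in TBI and 3.05 ± 0.336 in Sham (SD, n = 3 each). The log2 difference of 3.26 in TBI against Sham (SE 0.15, adjusted p = 3.76e-05) came with a smaller spread than that of the C1q chains, since the highest TBI library was 1.44 times the lowest for C4b and 2.62 to 3.34 times for the chains. Its near-identical copy C4a was not analysed here, and reads of the pair could be split, so the level of C4b is uncertain to that extent. The neighbours Tnxb (0.51, adjusted p = 0.0955) and Stk19 (-0.15, adjusted p = 0.577) were not called.

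The mean of the C1q chains was 3.88 to 4.62 times C4b in C-β-LG/DSF, 3.76 to 8.27 times in TBI and 7.91 to 10.6 times in Sham. TBI 1 (8.27) lay within the Sham range, TBI 3 (3.76) below the range of C-β-LG/DSF, and all C-β-LG/DSF libraries below all Sham libraries.

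C2, the other substrate of C1s, stood at 2.65, 2.58 and 2.51 FPKM in C-β-LG/DSF, at 2.16, 2.23 and 2.19 FPKM in TBI, and at 2.76, 1.70 and 1.55 FPKM in Sham. Sham 1 was the highest of all 9 libraries, so Sham overlapped both injured groups, and the TBI difference was 0.14 (95% interval -0.27 to 0.54, adjusted p = 0.609), or -0.20 after quantile normalization. The deposited position of C2, chromosome 17, 34856374 to 34896867, is shared with Cfb, Zbtb12 and Gm20547, so reads could be assigned to a neighbour. The authors' interval for C2 included 0 in all 9 libraries. Cfb and Zbtb12 did rise in TBI, by 0.91 (adjusted p = 0.0296) and 0.56 (adjusted p = 0.0205).

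C3, the central component where all complement branches meet, stood at 1.55, 0.690 and 0.966 FPKM in C-β-LG/DSF, at 1.89, 0.716 and 1.99 FPKM in TBI, and at 0.0399, 0.0422 and 0.185 FPKM in Sham. All injured libraries lay above all Sham libraries, and TBI 2 was near the lowest C-β-LG/DSF library. The log2 difference in TBI against Sham was 1.73 (SE 0.32, adjusted p = 0.00495). The mean of TBI was 17.2 times that of Sham, but the authors' intervals included 0 in all 3 Sham and 2 of 3 TBI libraries, and the fitted difference depends on the pseudocount (3.08 with 0.1 and 1.18 with 1, both called). C3 reached the minimum of 0.5 FPKM for testing in injured libraries alone, so it could be tested only because it was higher there; without the filter it was still called (adjusted p = 0.00737).

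C3ar1 encodes the receptor for C3a, found on microglia and other myeloid cells, and lies on chromosome 6 at 122847138 to 122856161. It stood at 3.90, 1.53 and 5.05 FPKM in C-β-LG/DSF, at 11.6, 4.87 and 2.70 FPKM in TBI, and at 0.620, 0.147 and 0.287 FPKM in Sham. Injured and Sham libraries did not overlap, while TBI spread 4.31 times between its highest and lowest library, in the same order of libraries as the C1q chains. The log2 difference in TBI against Sham was 2.84 (SE 0.50, adjusted p = 0.0043), and 2.32 without TBI 1 (adjusted p = 0.00888). The authors' intervals of the 3 Sham libraries included 0. Of the Sham libraries only Sham 1 reached the minimum of 0.5 FPKM, so C3ar1 was tested because injured libraries were higher. With no filter C3ar1 was still called, as in all 19 alternatives.

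Serping1, the gene of C1 inhibitor, lies on chromosome 2 at 84765387 to 84775444. It stood at 10.1, 6.55 and 8.53 FPKM in C-β-LG/DSF, at 16.2, 10.8 and 8.43 FPKM in TBI, and at 2.96, 5.40 and 3.01 FPKM in Sham. The lowest injured library, C-β-LG/DSF 2, lay just above the highest Sham library, Sham 2, and no authors' interval lay wholly above those of Sham. The log2 difference in TBI against Sham was 1.52 (SE 0.28, adjusted p = 0.00486), the smallest of the 7 genes called. Of the neighbours of Serping1, Ube2l6 also rose in TBI (1.04, adjusted p = 0.00785) and Gm19426 was not called (0.34, adjusted p = 0.33).

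By mean level the order in TBI was the C1q chains (213 to 230 FPKM), C4b (33.8), Serping1 (11.8), C3ar1 (6.40), C2 (2.19), C1s1 (1.78), C3 (1.53) and C1ra (1.12). In Sham it was C1qa (35.8 FPKM), C1qb (25.2), C1qc (24.2), Serping1 (3.79), C4b (3.05), C2 (2.001), C1s1 (1.46), C1ra (1.31), C3ar1 (0.351) and C3 (0.0890). Serping1 and C4b thus stood in the opposite order in the 2 groups, without overlap in TBI and with overlap in Sham. The neighbours C2, C1s1 and C1ra in the Sham order overlapped in their ranges, as did C1qb with C1qc, C4b with C2 and C3ar1 with C3. In the TBI order Serping1 overlapped C3ar1, C2 overlapped C1s1, and C3 overlapped both C1s1 and C1ra.

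C-β-LG/DSF was then set against TBI, which asks what the injection changed after injury. None of the 10 genes passed the test, and 0% of all genes did. In 9 of the 10 the difference was negative, as in 7610 of 14282 genes, and the median was -0.57 for the 10 genes and -0.02 for all. At an unadjusted p under 0.05, 5 of the 10 genes were lower (C1qa, C1qb, C1qc, C1s1 and C4b), against 7.48% of all genes. All C-β-LG/DSF libraries lay below all TBI libraries in 2 of the 10, C1s1 and C4b, against 9.29% of all genes, and above them in 1 of the 10, C2, against 5.95%.

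For the C1q chains the log2 difference was -0.94 in C1qa (95% interval -1.59 to -0.30, adjusted p = 0.394), -0.91 in C1qb (-1.72 to -0.10, adjusted p = 0.399) and -0.81 in C1qc (-1.56 to -0.07, adjusted p = 0.405). These values turned on single TBI libraries. Without TBI 1 they were -0.62, -0.44 and -0.44 for C1qa, C1qb and C1qc, and without TBI 3 they were -1.31, -1.31 and -1.22, where the smallest adjusted p over these 3 genes was 0.078. In each chain TBI 3 lay within the range of C-β-LG/DSF, and TBI 1 and TBI 2 lay above it. C4b differed by -0.36 (95% interval -0.70 to -0.03, adjusted p = 0.405) and C1s1 by -0.74 (-1.29 to -0.19, adjusted p = 0.394). The remaining differences were -0.33 in C1ra (-0.92 to 0.26), 0.19 in C2 (-0.21 to 0.60), -0.34 in C3 (-1.05 to 0.37), -0.69 in C3ar1 (-1.83 to 0.44) and -0.44 in Serping1 (-1.06 to 0.18), with adjusted p of 0.513 to 0.651.

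**Figure D2:**
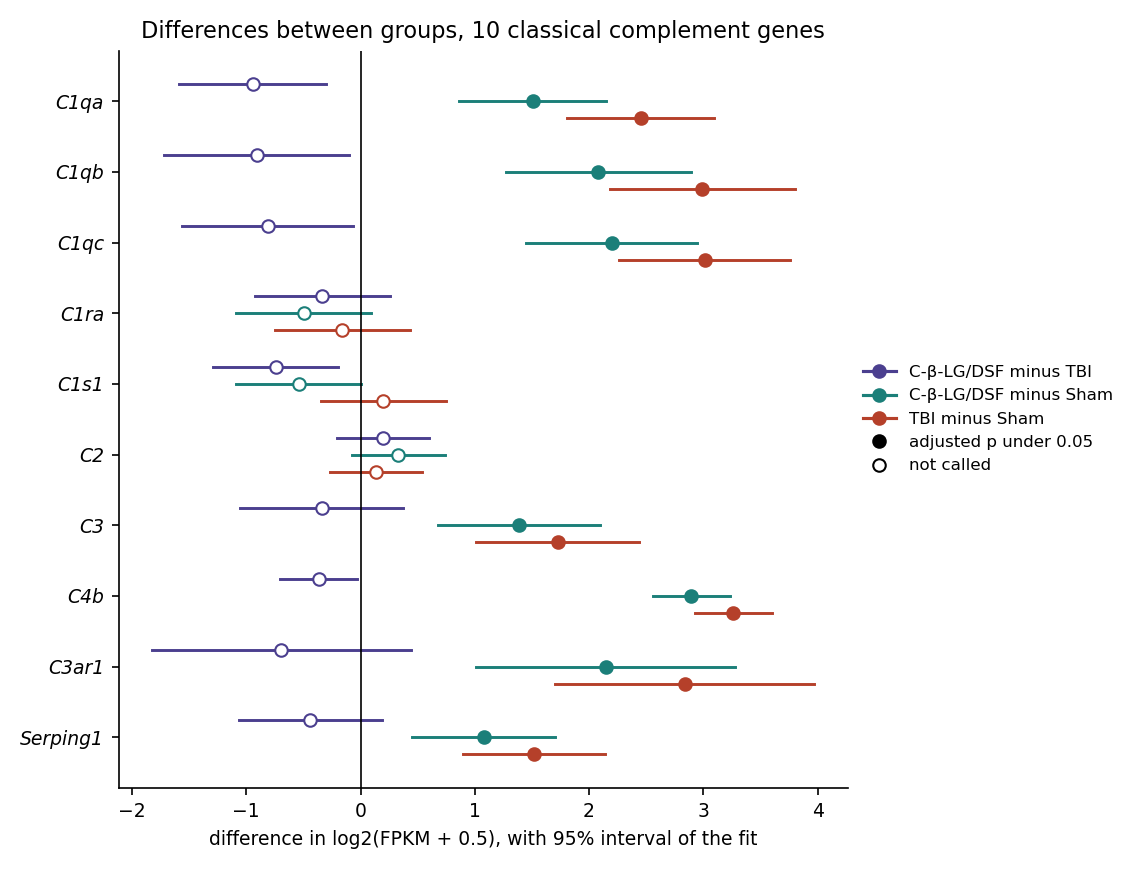
Differences in log2(FPKM + 0.5) between groups (horizontal axis) for the 10 genes, with bars for the 95% interval of the fit, filled points for an adjusted p under 0.05 and open points for genes not called. C-β-LG/DSF minus TBI is open for every gene, and 7 genes are filled for both C-β-LG/DSF minus Sham and TBI minus Sham.

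Against Sham, C-β-LG/DSF tissue showed the same 7 genes called higher as TBI. Both comparisons use the same Sham libraries, so the match of the lists is no independent support. Over all genes 13.3% were called and 6.38% were called higher. All C-β-LG/DSF libraries lay above all Sham libraries in 7 of the 10 genes, against 22% of all genes. The log2 differences were 1.51 in C1qa (SE 0.29, adjusted p = 0.0109), 2.08 in C1qb (SE 0.36, adjusted p = 0.00757), 2.20 in C1qc (SE 0.33, adjusted p = 0.00471) and 2.90 in C4b (SE 0.15, adjusted p = 0.000111). C3 (1.39, adjusted p = 0.0216), C3ar1 (2.15, adjusted p = 0.0238) and Serping1 (1.08, adjusted p = 0.0338) also rose.

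Several of these calls depended on single libraries. The count was 7, but 4 without C-β-LG/DSF 1, 3 without C-β-LG/DSF 3, 4 without Sham 1, 5 without Sham 2, 4 without Sham 3 and 4 after quantile normalization. C3 ended its call in all 6 of these, C3ar1 in all 6, and Serping1 in 5 of them and with no filter; C1qa ended it without C-β-LG/DSF 3 (adjusted p = 0.0534). C1qb, C1qc and C4b were called in all 19 alternatives. The proteases did not pass, with -0.50 in C1ra (95% interval -1.09 to 0.10, adjusted p = 0.243), -0.54 in C1s1 (-1.09 to 0.01, adjusted p = 0.173) and 0.33 in C2 (-0.07 to 0.74, adjusted p = 0.254).

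**Figure D3:**
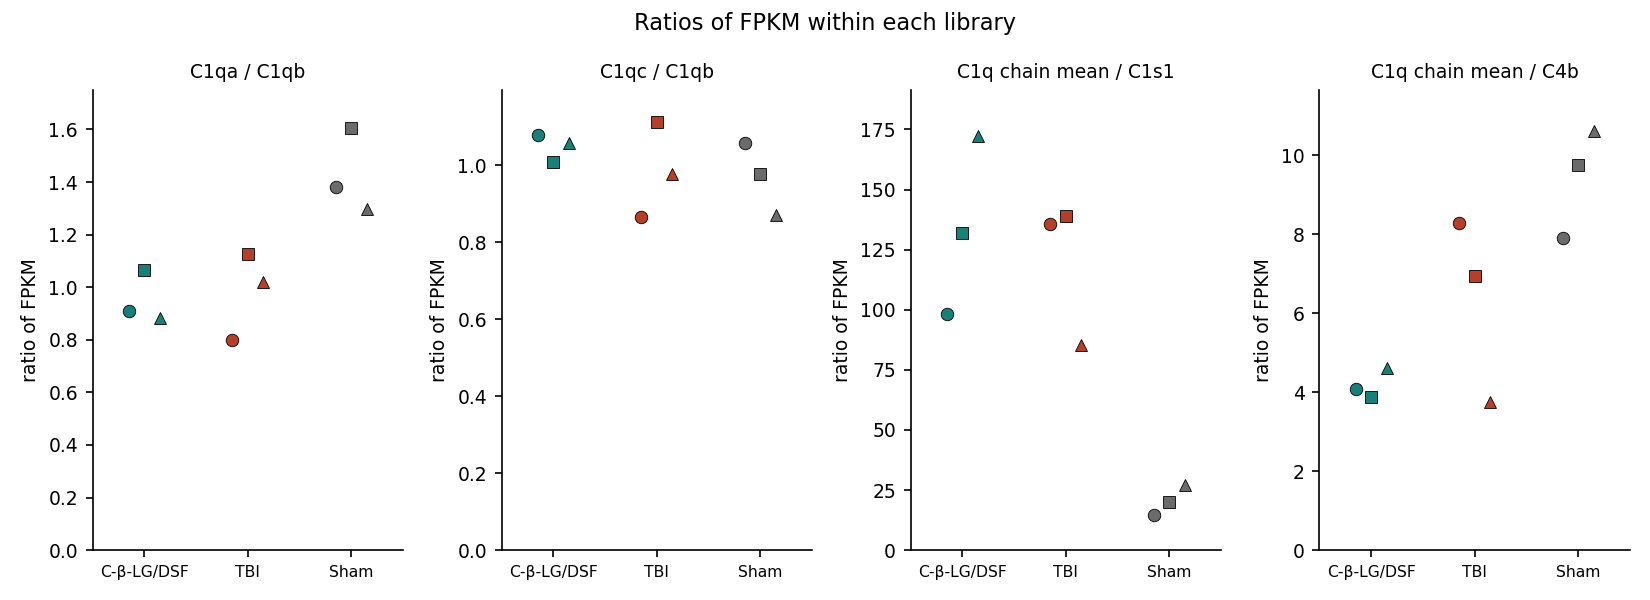
Ratios of FPKM within a library (vertical axes, from 0) by group, with C-β-LG/DSF, TBI and Sham from left to right and circles, squares and triangles for libraries 1, 2 and 3. C1qa to C1qb lies at 0.801 to 1.12 in the injured libraries and at 1.30 to 1.60 in Sham, and the C1q chain mean to C1s1 at 85.4 to 172 in the injured libraries and at 14.6 to 27.0 in Sham.

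Markers of cells that could make these proteins also differed between the groups. Of 11 homeostatic microglia markers 10 rose in TBI, and the list mean, relative to Sham on the log2 scale, was 0.50 to 0.98 in C-β-LG/DSF and 1.003 to 1.52 in TBI. Their summed FPKM was 224 to 323 in C-β-LG/DSF, 307 to 487 in TBI and 132 to 177 in Sham. Of 8 monocyte and macrophage markers tested, 5 rose in TBI, against 14.9% of all genes, with list means of 1.27 to 1.85 in C-β-LG/DSF and 1.50 to 2.99 in TBI; Ccr2, a defining marker of monocytes, reached at most 1.55 FPKM in any library. Ly6c2, a marker of inflammatory monocytes, was not called (-2.16, adjusted p = 0.0821), at 8.13, 11.96 and 6.69 FPKM in C-β-LG/DSF, at 1.81, 11.7 and 0.345 FPKM in TBI, and at 5.96, 19.7 and 15.8 FPKM in Sham. Of 10 reactive astrocyte markers 9 rose in TBI, with list means of 1.73 to 2.18 in C-β-LG/DSF and 2.28 to 3.64 in TBI. The monocyte and reactive astrocyte lists share Vim. The summed FPKM of the monocyte list was 128 to 322 in C-β-LG/DSF, 364 to 987 in TBI and 28.9 to 47.5 in Sham, and that of the reactive astrocyte list was 510 to 924 in C-β-LG/DSF, 856 to 2371 in TBI and 73.5 to 83.5 in Sham. Of 8 fibroblast and meningeal markers 6 rose in TBI, with list means of 1.21 to 1.58 in C-β-LG/DSF and 1.28 to 1.79 in TBI. Their summed FPKM was 116 to 157 in C-β-LG/DSF, 119 to 165 in TBI and 41.4 to 79.9 in Sham.

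On the same relative scale, the C1q chain mean exceeded the homeostatic microglia list by 1.03 to 1.24 in C-β-LG/DSF and 1.03 to 2.10 in TBI, with -0.18 to 0.18 in Sham. It exceeded the monocyte list by 0.07 to 0.60 in C-β-LG/DSF and 0.53 to 0.68 in TBI, with -0.24 to 0.15 in Sham. Against reactive astrocytes the groups overlapped in the chain mean, at -0.27 to 0.08 in C-β-LG/DSF, -0.24 to 0.21 in TBI and -0.12 to 0.15 in Sham. The chains differed there. C1qa in C-β-LG/DSF, at -0.742 to -0.376, lay wholly below its Sham range of -0.105 to 0.116. C1qb (-0.108 to 0.263) and C1qc (0.0495 to 0.392) in C-β-LG/DSF overlapped with Sham. C4b exceeded the homeostatic microglia list by 2.03 to 2.22 in C-β-LG/DSF and 1.54 to 2.14 in TBI, with -0.223 to 0.202 in Sham. It exceeded the homeostatic astrocyte list by 2.17 to 2.55 in C-β-LG/DSF and 2.46 to 2.90 in TBI, with -0.235 to 0.257 in Sham. Its difference from the reactive astrocyte list was 0.74 to 0.99 in C-β-LG/DSF, -0.07 to 0.87 in TBI and -0.164 to 0.175 in Sham. TBI 1 lay within that Sham range. C3 differed from the fibroblast and meningeal list by -0.18 to 0.22 in C-β-LG/DSF, -0.22 to 0.67 in TBI and -0.61 to 0.53 in Sham, so the groups overlapped. Serping1 differed from it by -0.44 to -0.15 in C-β-LG/DSF, -0.31 to 0.22 in TBI and -0.074 to 0.065 in Sham. Overlap was not particular to that list. C3 overlapped against the monocyte list, at -0.31 to -0.04 in C-β-LG/DSF, -1.1 to 0.59 in TBI and -0.38 to 0.28 in Sham. Serping1 overlapped against homeostatic microglia, at 0.14 to 0.46, -0.08 to 0.51 and -0.20 to 0.29 in the same order. Against reactive astrocytes C-β-LG/DSF lay below Sham in both genes. The part of these cells in the levels of the complement genes was not tested.

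**Figure D4:**
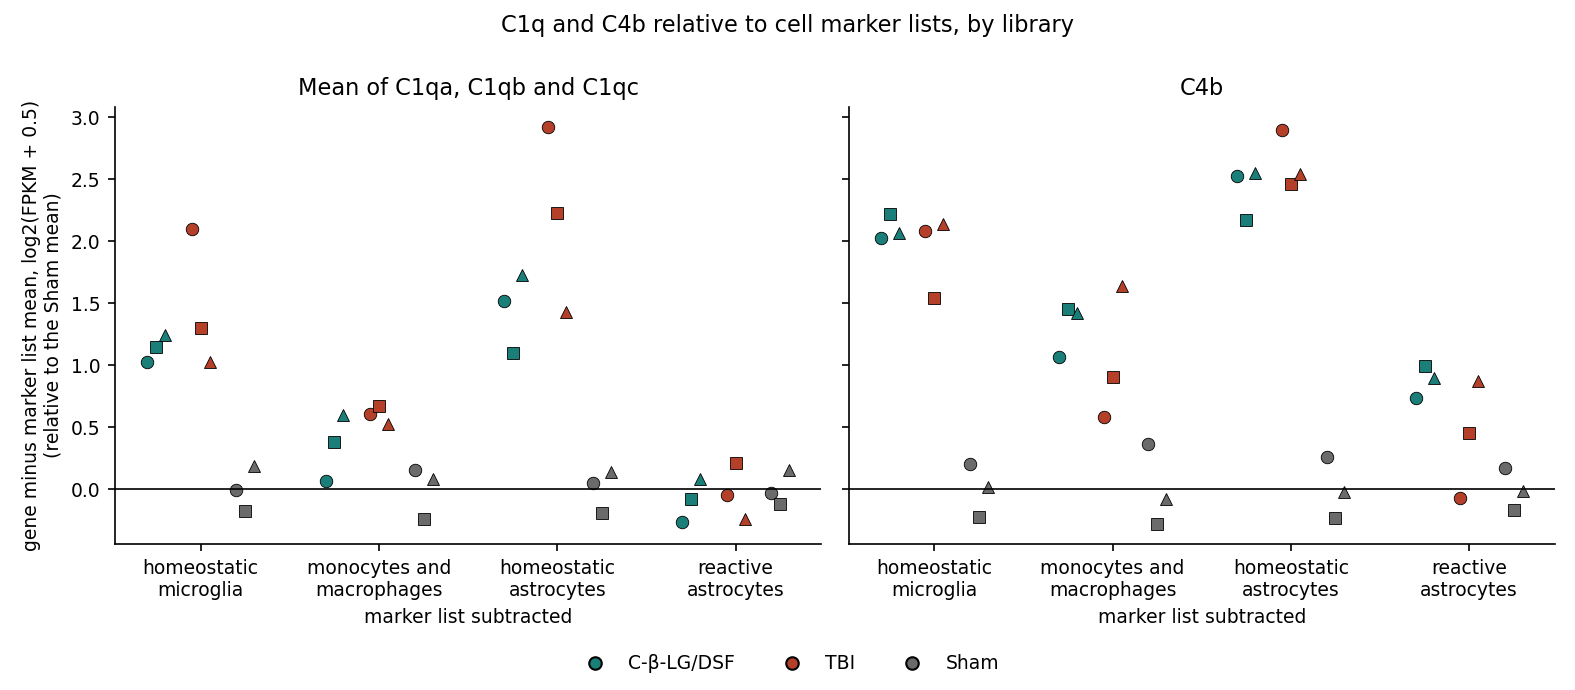
C1q chain mean (left) and C4b (right) minus the mean of a marker list, in log2(FPKM + 0.5) relative to Sham (vertical axis), for each library and 4 lists, with C-β-LG/DSF, TBI and Sham from left to right and circles, squares and triangles for libraries 1, 2 and 3. The injured libraries lie 1.03 to 2.10 above the homeostatic microglia list for C1q, and -0.27 to 0.21 from the reactive astrocyte list.

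Genes whose levels ran most like these genes were ranked by Pearson r of log2(FPKM + 0.5) over the 9 libraries among 11637 genes, as a description. The libraries share 3 groups, so any gene that differs between Sham and injured tissue scores high. For the C1q chain mean the first 5 were Tcirg1 (r = 0.998), a proton pump subunit, Cyba (0.998), a subunit of the phagocyte NADPH oxidase, Apoc2 (0.997), Ptpn6 (0.996) and Rac2 (0.995). For C4b they were Tspan18 (0.989), Nrp1 (0.987), Wdfy2 (0.986), the astrocyte filament gene Gfap (0.986) and Spp1 (0.985), which encodes osteopontin. C3 gave lower values, led by Ost4 (0.967), Sulf2 (0.963) and the collagen gene Col3a1 (0.954). Serping1 gave Acsf2 (0.992), Anxa2 (0.989), Mxra8 (0.987), Il6ra (0.987) and Efemp2 (0.986).

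The rest of the complement system was read from 54 further genes, of which 53 were listed and 28 passed the filter. In TBI against Sham 10 of the 28 rose, 2 fell and 16 were not called, with a median difference of 0.37. Over all genes 14.9% were called higher and 11.9% lower, with 26.8% called in all. Receptors held 5 of the 10. Itgb2 (log2 difference 2.68, adjusted p = 0.00116), Itgam (1.79, adjusted p = 0.00266) and Itgax (1.91, adjusted p = 0.000684) encode chains of the integrin receptors that bind C3 fragments. C5ar1, the C5a receptor gene, rose by 2.95 (adjusted p = 0.00554) and Cd93 by 1.55 (adjusted p = 0.00891), while C1qbp (0.10, adjusted p = 0.44) was not called. No Sham library reached the 0.5 FPKM of the filter in Itgax and 1 did in C5ar1, so these genes were tested because injured libraries were higher. With no filter on low values, Itgax (adjusted p = 0.000999) and C5ar1 (adjusted p = 0.0112) were also called. So was C5ar2 (0.78, adjusted p = 0.0224), which did not pass the filter and was named after its values were seen. Itgb2 stood at 7.75, 5.52 and 7.89 FPKM in C-β-LG/DSF, at 23.6, 13.3 and 8.06 FPKM in TBI, and at 1.65, 2.08 and 1.46 FPKM in Sham, so TBI 1 was highest and injured libraries lay above Sham.

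In the lectin pathway, Fcna, the ficolin A gene, rose by 1.09 in TBI (adjusted p = 0.0174), and the protease genes Masp1 (-0.28, adjusted p = 0.263) and Masp2 (0.82, adjusted p = 0.474) were not called. Fcna stood at 0.779, 0.686 and 0.488 FPKM in C-β-LG/DSF, at 1.16, 0.856 and 0.350 FPKM in TBI, and at 0, 0.156 and 0.0998 FPKM in Sham, so all Sham libraries lay below the others. In the alternative pathway Cfb, the factor B gene, rose by 0.91 (adjusted p = 0.0296) and properdin, Cfp, did not pass (0.49, adjusted p = 0.109). Fcna and Cfb passed the filter through injured libraries alone, since no Sham library reached 0.5 FPKM in either. With no filter both were called (adjusted p = 0.0155 for Fcna and 0.0285 for Cfb). Cfd, the factor D gene, was below the filter, at 0, 0.527 and 1.26 FPKM in C-β-LG/DSF and listed at 0 in all TBI and Sham libraries. With no filter Cfd was not called in C-β-LG/DSF against TBI (adjusted p = 0.448) or against Sham (adjusted p = 0.148). Of 7 genes of terminal components, which build the membrane pore, C8g alone passed the filter and was not called (-0.31, adjusted p = 0.547), and none of the other 6 exceeded 0.509 FPKM in any library.

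Among 12 soluble and membrane regulators tested, 2 rose, 2 fell and 8 were not called, counts near the 14.9% of all genes called higher and the 11.9% called lower. Csmd2 (-0.49, adjusted p = 0.00958) and Susd4 (-0.36, adjusted p = 0.0164) fell. Of the relatives of Csmd2, Csmd1 was not called (-0.41, adjusted p = 0.135), and neither was Csmd3 in TBI (0.32, adjusted p = 0.509) or in C-β-LG/DSF (0.84 against Sham, adjusted p = 0.121). Of 9 neuronal markers 7 fell in TBI, and their part in these levels was not tested. Clu, the clusterin gene, was among those that rose (0.40, adjusted p = 0.0296); it was named after its values were seen, and it was not called with no filter (adjusted p = 0.0671). Cfi, another regulator, did not pass the filter and was also named after its values were seen. With no filter on low values Cfi was called higher in TBI (1.16 against Sham, adjusted p = 0.00233). It was also called higher in C-β-LG/DSF (0.78 against Sham, adjusted p = 0.0129). Without Sham 3 the total of calls over the 28 genes was 6 in place of 12, and without TBI 1 it was 8.

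C1q binds antibody and pentraxins, whose genes were also read. Ighm, the IgM heavy chain gene, stood at 15.8, 5.62 and 12.1 FPKM in C-β-LG/DSF, at 33.2, 18.5 and 17.8 FPKM in TBI, and at 19.3, 11.1 and 23.4 FPKM in Sham. TBI and Sham overlapped (log2 difference 0.36, adjusted p = 0.537). Igkc, the kappa light chain gene, rose by 1.65 (adjusted p = 0.0402), at 0.170, 2.38 and 0.440 FPKM in C-β-LG/DSF, at 1.56, 1.35 and 2.39 FPKM in TBI, and at 0.157, 0.592 and 0 FPKM in Sham, and it was not called with no filter (adjusted p = 0.0583). Ighg2c stood at 0.683, 0.0469 and 0.656 FPKM in C-β-LG/DSF, at 2.06, 1.53 and 0.459 FPKM in TBI, and at 2.98, 1.25 and 2.37 FPKM in Sham, and was not called (-0.60, adjusted p = 0.344). The pentraxin gene Ptx3 stood at 2.76, 0.675 and 1.64 FPKM in C-β-LG/DSF, at 9.89, 0.951 and 0.797 FPKM in TBI, and at 0.114, 0.253 and 0.162 FPKM in Sham. Injured and Sham libraries of Ptx3 did not overlap, but the difference missed the threshold (1.998, adjusted p = 0.0666). Ighg1, Ighg2b and Crp did not exceed 0.291 FPKM in any library, and Apcs was listed at 0 in all 9.

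In C-β-LG/DSF against TBI none of the 28 genes was called by limma, 6 were lower at an unadjusted p under 0.05 and none was higher, and 19 of 28 differences were negative. Over all genes 7.48% were lower at an unadjusted p under 0.05. Against Sham, C-β-LG/DSF had 5 of the 28 called higher and 1 lower, against 6.38% higher, 6.88% lower and 13.3% called in all over all genes. These were Itgax (1.17, adjusted p = 0.00522), Itgb2 (1.75, adjusted p = 0.0098), C5ar1 (2.08, adjusted p = 0.0393), Itgam (0.98, adjusted p = 0.0473) and Fcna (0.98, adjusted p = 0.0439) among the higher, and Csmd2 (-0.49, adjusted p = 0.0178) as the lower gene. With no filter C5ar1 (adjusted p = 0.0652) and Itgam (adjusted p = 0.0741) were not called. The count of 6 genes called against Sham ran from 2 to 11 when single libraries were left out, with 2 without C-β-LG/DSF 2, C-β-LG/DSF 3 or Sham 3, 3 without C-β-LG/DSF 1, TBI 2, Sham 1 or Sham 2, and 11 without TBI 1.

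**Figure D5:**
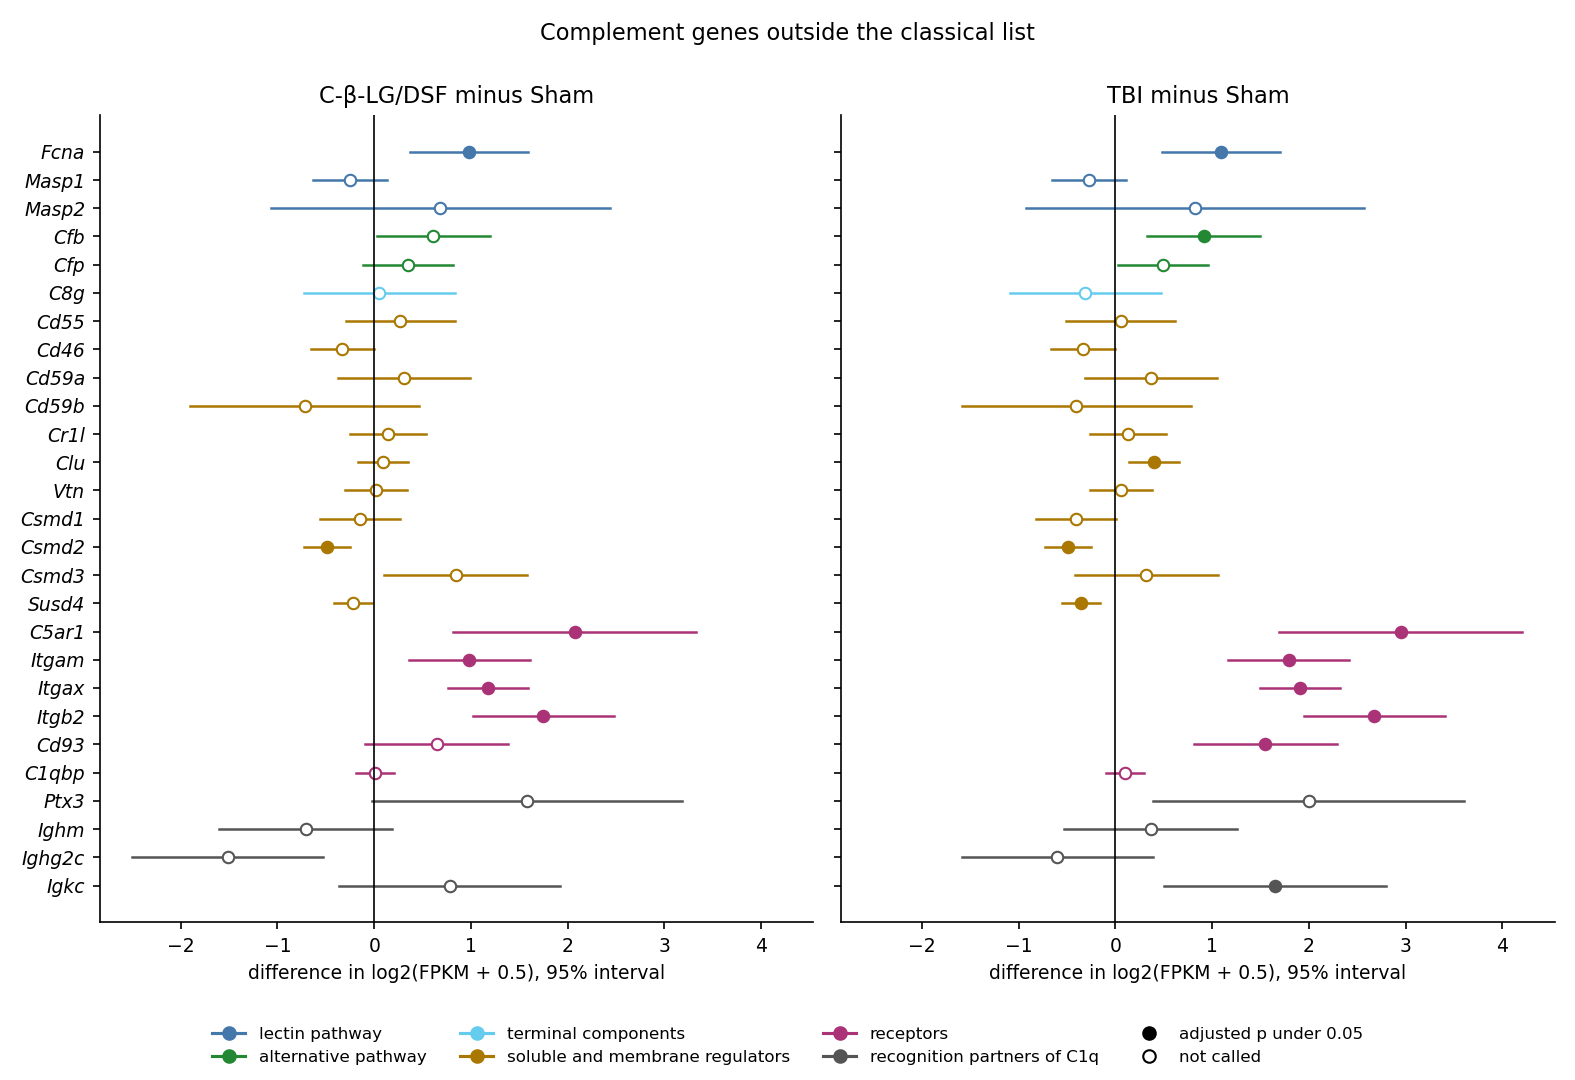
Differences in log2(FPKM + 0.5) with 95% intervals (horizontal axes) for the other complement genes tested, 1 of them not shown, coloured by role, for C-β-LG/DSF minus Sham (left) and TBI minus Sham (right), where filled points have an adjusted p under 0.05. The receptors Itgb2, Itgam, Itgax and C5ar1 are filled on both sides, between 0.98 and 2.95, and the only terminal component tested, C8g, is open.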

How the data were processed

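Brain RNA was isolated with Trizol, and libraries were prepared by the Illumina Stranded Total RNA Prep kit, according to the labels. Reads were aligned with HISAT2 2.1.0 and quantified with Cufflinks 2.2.1, per the submitters' processing notes. The deposited values are FPKM per gene and library as the authors' program gave them, each with a lower and an upper interval bound; counts and depth are not given. The sources used here name no build; 22452 of 22482 identifiers match GENCODE M21 on GRCm38, whose positions are used, counted from 1. Symbols turned into dates (26) were restored, 1 empty line was dropped, 11 genes with a failed estimate (among them Fn1, Map2 and Mbp) were left out, and no per-sample column went unused.

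Genes at 0.5 FPKM or more in at least 3 of 9 libraries (14282) were put on the scale log2(FPKM + 0.5) and fitted with limma 3.58.1 (R 4.3.3). The fit had 1 mean per group, a mean trend and 6 residual degrees of freedom, and two-sided p-values were adjusted by Benjamini-Hochberg over all genes. A call means an adjusted p under 0.05. The fit was tested on simulated data. The added 0.5 understates differences of low genes. Intervals are 95% intervals of the fit for 1 gene. Differences are the first group named minus the second.

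The 10 genes were taken by symbol, and they and the lists were chosen with earlier results of these data known. All 10 are given, with other complement genes by the 3 of smallest p in TBI against Sham in each role, and the 5 genes of most similar pattern with a mean of at least 2 FPKM (for C3 the first 3 are named). Alternatives were the pseudocount (0.1 and 1), the filter, the scaling, the groups in the fit, the mean trend, the replicate block and leaving out each library. A regulator that this rule takes is not reported here.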

Additional observations from a re-analysis of the deposited data

How the results depend on the processing

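Against Sham, TBI kept 7 of the 10 genes called in all 19 alternatives, and C-β-LG/DSF against TBI kept 0 in all 19. C-β-LG/DSF against Sham gave 7 calls, 3 to 7 when single libraries were left out and 4 after quantile normalization. The reversed differences in TBI against Sham were C1s1 after quantile normalization (-0.17) and without TBI 1 (-0.026; -0.026 to 0.34 over all libraries left out in turn), and C2 after quantile normalization (-0.20), none of them called. The other complement genes gave 12 calls in TBI against Sham, 6 to 13 with a library left out, while C-β-LG/DSF against Sham gave 6, 2 to 11 with a library left out, 3 with a pseudocount of 1 and 11 with only the groups compared. Over all genes, TBI against Sham gave 3830 calls, 2239 to 4369 with a library left out. C-β-LG/DSF against Sham gave 1893, 661 to 2930 with a library left out and 3443 with only the groups compared. C-β-LG/DSF against TBI gave 0, 0 to 2 with a library left out, 2 with no filter and 1 with no mean trend. Quantile normalization split the TBI calls into 1582 higher and 1889 lower, against 2125 and 1705, and equal totals split the C-β-LG/DSF calls against Sham into 1353 and 700, against 911 and 982. The cause of these shifts was not tested. Replicate numbers are shared between groups in the titles. The titles also carry a second label in brackets, whose numbers do not follow the replicate numbers across groups. Same-numbered libraries correlated from -0.0948 to 0.325 over 9 pairs, with 2 over 0.1, and differently numbered ones from -0.449 to 0.48. The numbers were therefore not taken to pair libraries, and a block on them may join unrelated libraries. With the replicate number as a block, 7, 0 and 7 of the 10 genes were called in TBI against Sham, C-β-LG/DSF against TBI and C-β-LG/DSF against Sham, and 3513, 0 and 1626 of all genes. Depth is unknown, and the authors' intervals limit what C1ra, C1s1, C2 and C3 can show.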
